A study of Homo sapiens with 12 samples.

Results

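Aska-SS and Yamato-SS are established human synovial sarcoma (SS) cell lines that both carry the fusion gene SS18-SSX1, and their expression levels were set against each other across all genes. The series holds 12 Affymetrix GeneChip Human Genome U133 Plus 2.0 arrays of 4 SS lines. The 6 arrays described here are the 3 of Aska-SS and the 3 of Yamato-SS, paired by dose. Each line had 1 array of cells given vehicle or no drug (0 µM), 1 at 0.3 µM and 1 at 3 µM of ZSTK474, an inhibitor of PI3K, all for 24 h in RPMI-1640 medium with serum. The comparison asks how far lines of one fusion type differ in expression, and whether the differences hold at every dose. The other 6 arrays are of SYO-1 and Fuji, which carry SS18-SSX2. With 1 array per line and dose, the 3 doses stand in for replicates. The p-values set the difference against the spread of all 4 lines over the doses, after the average dose effect was removed. This spread is not one between repeated cultures. A cell line is grown from 1 tumor, and the comparison is of these lines and not of kinds of tumor.

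SS is a soft tissue sarcoma in which SS18, a subunit of the BAF (SWI/SNF) chromatin remodelling complex, is fused to an SSX protein. The fusion protein enters the BAF complex, and the altered complex opens genes that Polycomb would otherwise keep closed, among them many developmental transcription factors. SS cells therefore carry mixed mesenchymal, epithelial and neural features. The diagnostic marker TLE1, a corepressor of transcription, was measured well above the floor in both lines, with log2 signals of 14.30, 14.56 and 14.39 in Aska-SS and 12.83, 13.11 and 12.93 in Yamato-SS at 0, 0.3 and 3 µM. SS18 itself gave 10.36, 10.43 and 10.01 in Aska-SS and 9.99, 9.99 and 10.04 in Yamato-SS, a difference of 0.26 (standard error 0.13, adjusted p = 0.11) that did not pass the test. It passed in 4 alternatives, with 0.32 without quantile normalization, 0.41 with probe sets filtered on the mean of all 12 arrays, 0.38 with array weights and 0.40 without the 3 µM arrays. Throughout, the 3 levels of a line are given in the order 0, 0.3 and 3 µM, as log2 of the normalized signal, and a difference is the mean of Aska-SS minus that of Yamato-SS in log2 units, from limma.

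The lines differed at a large share of the genes. Each gene was read from 1 probe set, the brightest one that carries its symbol alone, and genes whose mean signal over the 6 arrays was below the median of all probe sets were left out. Of 12135 genes tested, 3789 (31.2%) were higher in Aska-SS and 3646 (30%) were higher in Yamato-SS at an adjusted p under 0.05. A difference was counted as held where it passed this test and was also at least 1 log2 unit (2-fold) in the same direction at each of the 3 doses. By this rule 1292 genes (10.6%) were higher in Aska-SS and 1144 (9.43%) in Yamato-SS, 2436 in all. The median difference over all genes was -0.01, the median size 0.55 and the median standard error 0.16. Of the 1127 held genes with several probe sets above that median signal, 1079 had all of these on the same side. Dimmer probe sets of the genes were not counted. At 4 or more log2 units at each dose there were 186 genes higher in Aska-SS and 118 higher in Yamato-SS, and at 6 or more there were 33 and 22.

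Most differences had the same direction at each dose. Of 3418 genes that differed by at least 1 log2 unit at 0 µM, 96.1% had the same sign and 71.4% a difference of at least 1 unit in that direction at both other doses, and 9 genes differed by at least 1 unit the other way at 3 µM. All 402 genes that differed by 4 or more units at 0 µM kept a difference of at least 1 unit at both other doses. Across the 12135 genes the difference at 0 µM correlated with that at 0.3 µM with r = 0.94 and with that at 3 µM with r = 0.91, where the points share the arrays. Arrays of the same line correlated with r = 0.954 to 0.980 and arrays of the other line at the same dose with r = 0.746 to 0.771. With dim probe sets removed by the mean of all 12 arrays, 19.8% of genes differed by at least 1 log2 unit at each dose between Aska-SS and Yamato-SS, against 11.5% to 16% for the other 5 pairs of lines. The pair that shares SS18-SSX1 thus had the highest count of the 6 pairs. The pair that shares SS18-SSX2, SYO-1 and Fuji, had the lowest (11.5%). Aska-SS and Fuji, which do not share a fusion type, came close to it (11.7%). These pairs were counted without a test.

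**Figure D1:**
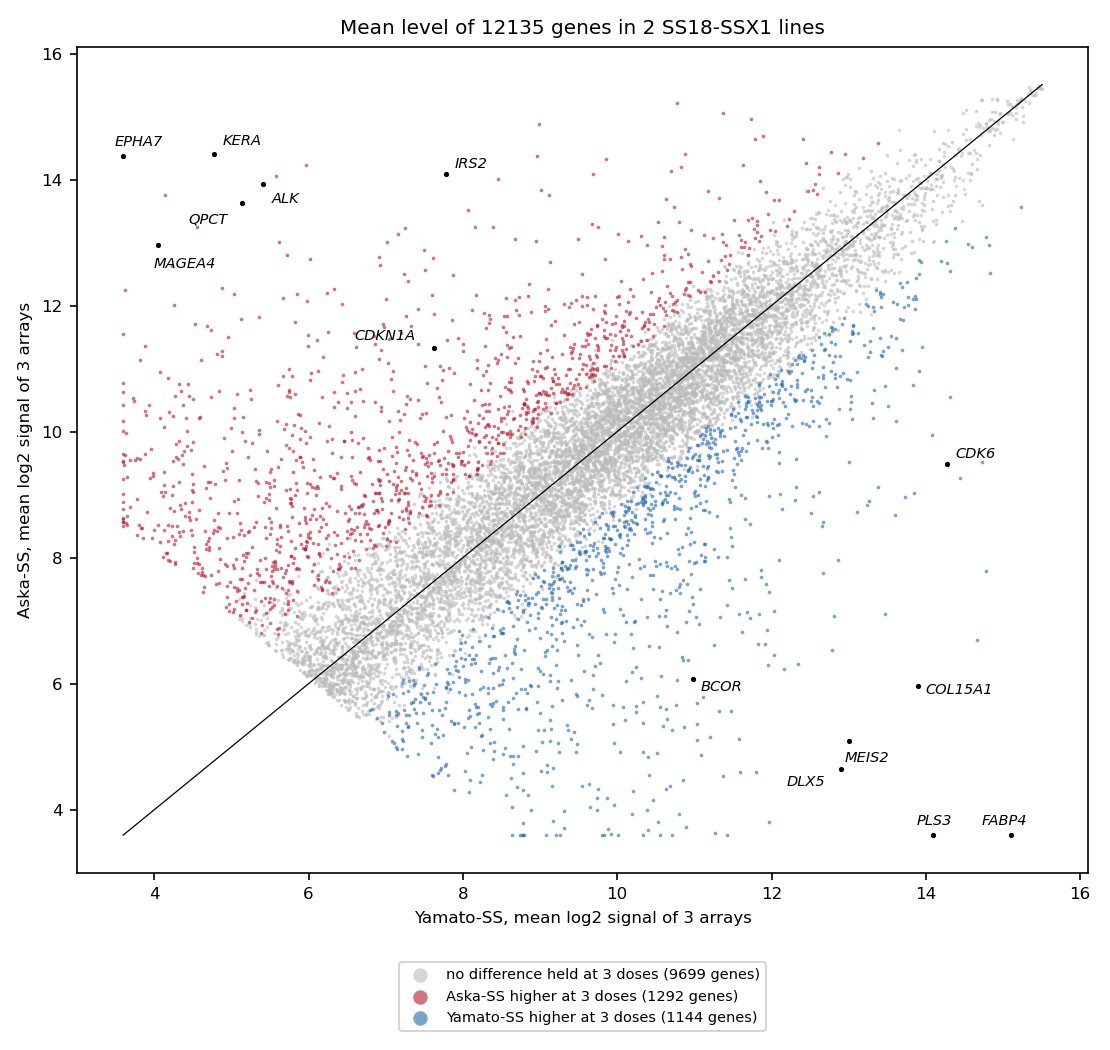
Mean log2 signal of each of 12135 genes in Yamato-SS (x axis) and Aska-SS (y axis), over 3 arrays each. Red points are the 1292 genes higher in Aska-SS and blue points the 1144 higher in Yamato-SS at each of 3 doses, grey points are the other genes, the line marks equal levels, and the empty lower left corner holds genes removed for low signal.

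The genes highest in Aska-SS over Yamato-SS, among those above the floor of the scale in both lines, included secreted proteins, receptors and enzymes. KERA, which encodes keratocan, a proteoglycan known from the cornea, gave 14.26, 14.43 and 14.53 in Aska-SS and 4.47, 4.92 and 4.93 in Yamato-SS. The lines lay more than 9 units apart at each dose, and the difference was 9.64 (standard error 0.34, adjusted p = 6.21e-10). DKK1, a secreted antagonist of Wnt signaling, gave 13.97, 14.06 and 14.15 in Aska-SS and 5.23, 5.74 and 5.78 in Yamato-SS, a difference of 8.48 (standard error 0.39). ALK, a receptor tyrosine kinase that is a drug target in other cancers, gave 13.81, 13.90 and 14.06 in Aska-SS and 5.65, 5.72 and 4.88 in Yamato-SS, and the lines were separated by more than 8 units at each dose. QPCT, which encodes glutaminyl cyclase, had the smallest standard error of the 10, with 13.41, 13.60 and 13.88 in Aska-SS and 5.39, 4.95 and 5.09 in Yamato-SS and a difference of 8.49 (standard error 0.17, adjusted p = 9.37e-12). NPY1R, a receptor of neuropeptide Y, differed by 8.39 (standard error 0.38) and was highest in Aska-SS at 3 µM, where it reached 13.49. The other 5 of the 10 were PDE5A, the cyclic GMP phosphodiesterase, DNER, a Notch ligand of neurons, the metalloproteinase MMP10, the calcium-binding membrane protein MCTP2, and GLDC, the glycine decarboxylase of mitochondria. Their differences were 8.27, 7.18, 7.39, 7.39 and 7.15, with standard errors of 0.23 to 0.35.

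A further 19 genes were at the floor of the scale in all 3 Yamato-SS arrays and at least 3 log2 units above it in each Aska-SS array. The floor is the 20th percentile of the normalized signals, 3.60 on the log2 scale, and a difference against it is a lower bound. A level printed elsewhere as 3.60 is a value at this floor, and such arrays can make the printed difference smaller than the true one. EPHA7, an ephrin receptor, gave 14.17, 14.44 and 14.51 in Aska-SS and was at the floor in Yamato-SS, at least 1749.9-fold higher (adjusted p = 5.14e-10). SLC6A15, a transporter of neutral amino acids, gave 10.88, 11.64 and 12.13 in Aska-SS, at least 248-fold higher. ANKH, which exports pyrophosphate, gave 10.79, 10.70 and 10.84, at least 145-fold higher. Next in order came PSMB8, a subunit of the immunoproteasome, CCNYL2, the sodium channel SCN9A, the dermokine gene DMKN, the laminin chain LAMB3, SLX4IP, a partner of the nuclease scaffold SLX4, and the antisense RNA SSTR5-AS1. These were at least 60.4-fold to 131-fold higher in Aska-SS.

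Among the genes highest in Yamato-SS were collagens and transcription factors of embryonic patterning. COL15A1, a basement membrane collagen, gave 6.16, 5.92 and 5.82 in Aska-SS and 14.07, 13.83 and 13.78 in Yamato-SS, a difference of -7.93 (standard error 0.20, adjusted p = 5.78e-11) that was nearly the same at each dose (-7.91, -7.92 and -7.96). MEIS2, a homeobox factor that works beside HOX proteins, gave 5.03, 5.03 and 5.21 in Aska-SS and 12.98, 13.13 and 12.91 in Yamato-SS. The lines did not come within 7 log2 units of each other for either gene. PI15, a secreted protease inhibitor, differed by -7.97 (standard error 0.39), and COL6A3, a chain of collagen VI, by -7.0 (standard error 0.14). DLX5, a homeobox factor of limb and skull development, gave 4.55, 5.69 and 3.70 in Aska-SS and 12.06, 13.02 and 13.63 in Yamato-SS. Its differences of -7.50, -7.33 and -9.93 were widest at 3 µM. IGF2BP3, an RNA-binding protein of fetal tissue, differed by -7.21, VCAM1, an adhesion molecule, by -6.45, and PEG10, an imprinted gene derived from a retrotransposon, by -6.83. ALDH1A2, which makes retinoic acid, and TMEM100, a membrane protein downstream of BMP receptors, differed by -6.24 and -6.37. VCAM1 was higher at each higher dose in both lines, with 3.75, 5.46 and 6.17 in Aska-SS and 10.48, 11.69 and 12.56 in Yamato-SS, and its differences of -6.74, -6.23 and -6.39 stayed close together.

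The reverse set, at the floor in all 3 Aska-SS arrays and at least 3 log2 units above it in each Yamato-SS array, held 17 genes. FABP4, the fatty acid binding protein of adipocytes, gave 15.32, 15.15 and 14.84 in Yamato-SS, at least 2907-fold higher than in Aska-SS, and no other of the 12135 genes had a larger fitted difference. PLS3, the actin-bundling protein plastin 3, gave 14.04, 14.09 and 14.16, at least 1444-fold higher, while SYO-1 and Fuji had means of 12.49 and 13.41. Aska-SS was thus the only one of the 4 lines with PLS3 at the floor. DLX6, the neighbor of DLX5, gave 10.75, 11.47 and 12.05 on a probe set that can hybridize with other transcripts, at least 227-fold higher. EYA2, a transcriptional cofactor with phosphatase activity, SLC43A3, a purine transporter, the matrix protein EMILIN1, the sorting receptor SORCS1, the beta-1 adrenergic receptor ADRB1, RARRES2, which encodes chemerin, and the microtubule protein MAP7 were at least 50.6-fold to 139-fold higher. RARRES2 was at the floor in SYO-1 and Fuji too, so Yamato-SS was the only line in which it was measured above it.

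**Figure D2:**
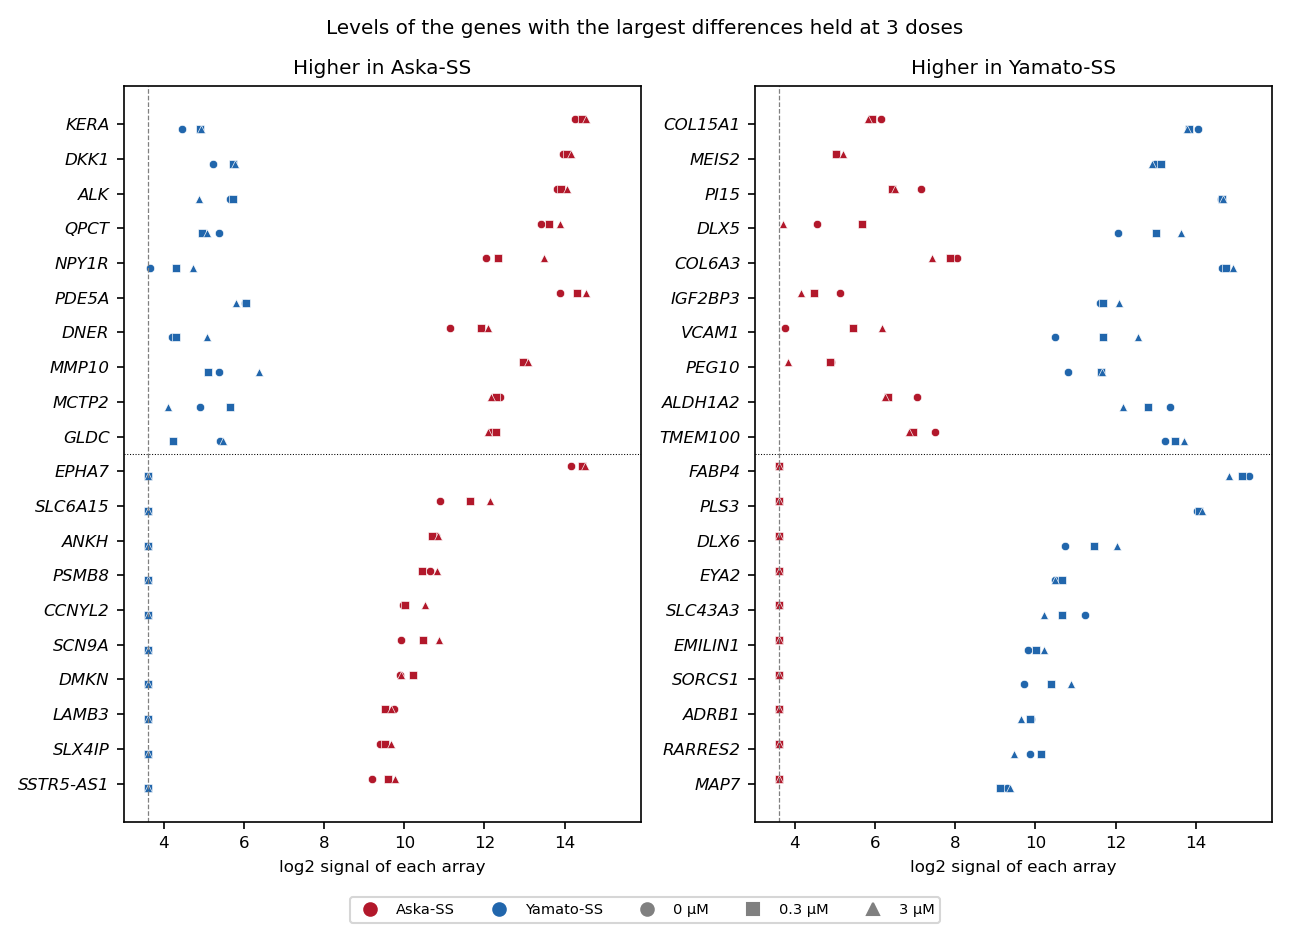
Log2 signal of each array for the 10 leading genes of each direction with both lines above the floor (above the dotted line) and 10 genes at the floor in the other line (below it). Red is Aska-SS, blue is Yamato-SS, symbols mark the dose, the dashed line is the floor, and for each gene the 3 arrays of one line lie apart from the 3 of the other.

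The lines were next compared over 33 lists of genes of known function, each read against the shares over all genes. The median difference of a list is given beside that of all genes, -0.01, and the list was not tested as such. Over all genes 31.2% passed as higher in Aska-SS and 30% in Yamato-SS, and 10.6% and 9.43% were held. Patterning factors other than HOX genes, mesenchymal genes and synovial sarcoma markers differed often but in both directions, with 70.0%, 66.7% and 63.0% of their tested members held, against 20.1% of all genes. Of these lists 50 of 78, 21 of 26 and 27 of 29 genes were tested. A gene low in 1 line passed the signal filter only where the other line was high enough. This can raise such shares, and by how much was not tested. The cytosolic ribosomal protein genes stood at the other end. In limma 8 of 40 tested members passed as higher in Aska-SS and 3 in Yamato-SS (9 and 4 at an unadjusted p under 0.05), 0 were held, and the median difference was 0.05.

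**Figure D3:**
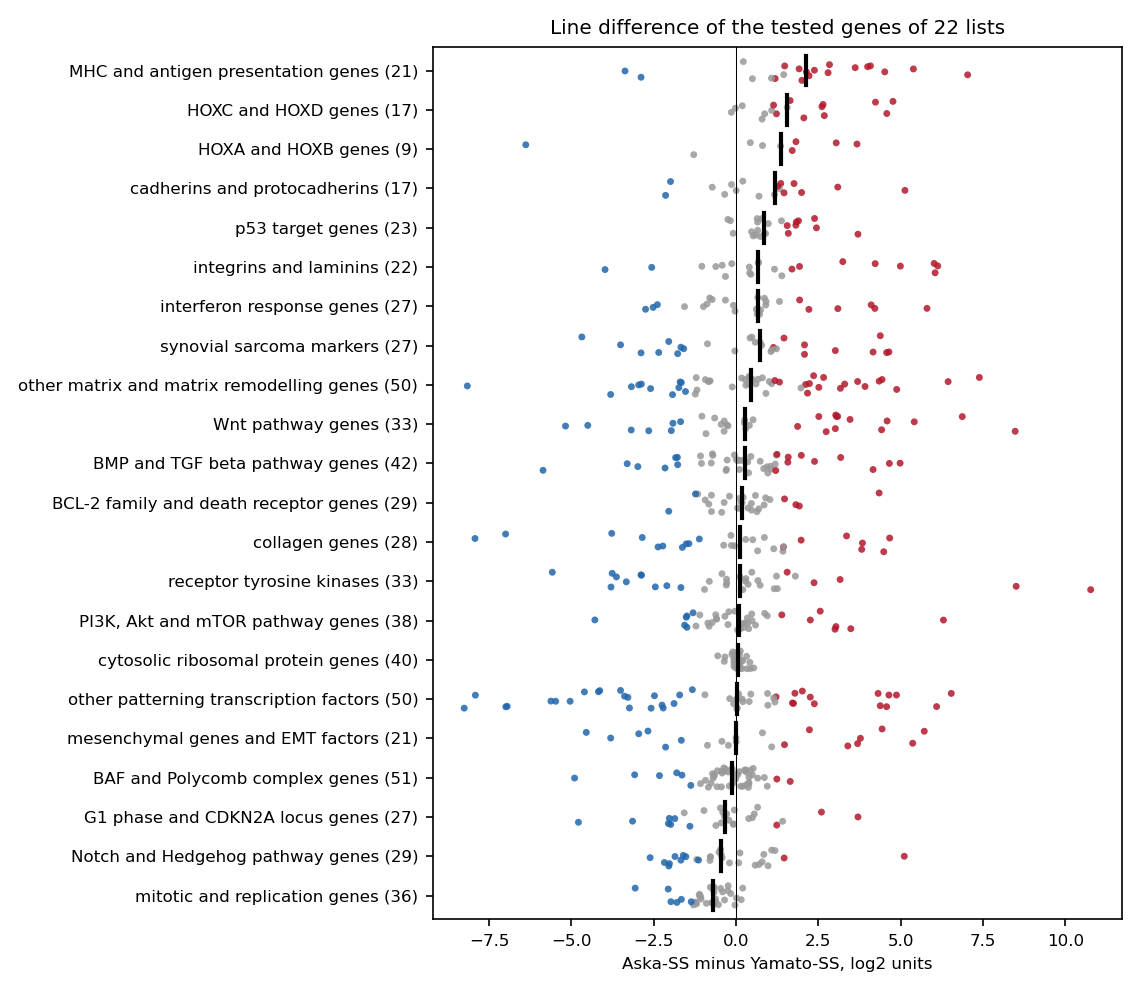
Aska-SS minus Yamato-SS difference, in log2 units, of every tested gene of 22 lists, with the number of tested genes in brackets. Red and blue points are genes higher in Aska-SS and in Yamato-SS at each of 3 doses, grey points are the others, and black bars are list medians, which run from 2.14 for antigen presentation genes to -0.70 for mitotic and replication genes.

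Genes of antigen presentation were mostly higher in Aska-SS. MHC class I molecules display peptides that the proteasome cuts and the TAP transporter carries into the endoplasmic reticulum. Of 21 tested members of this list, 18 were higher in Aska-SS, 2 in Yamato-SS and 1 did not pass, where 31.2% and 30% of all genes passed. The differences of 15 and 2 were held (81.0%, against 20.1% of all genes), and the list's median was 2.14. PSMB8 gave 10.64, 10.43 and 10.83 in Aska-SS and was at the floor in Yamato-SS. HLA-C, a class I heavy chain, gave 12.69, 12.99 and 12.96 in Aska-SS and 7.35, 7.86 and 7.26 in Yamato-SS, a difference of 5.39 (standard error 0.14, adjusted p = 9.04e-11). HLA-B, HLA-E, HLA-F and HLA-G differed by 2.84, 2.80, 2.38 and 2.14. These genes are near-identical copies and vary in sequence between people, so their probe sets can share signal or bind one allele better, and the values of single HLA genes are uncertain. TAP1, a chain of the peptide transporter, gave 9.96, 9.69 and 9.99 in Aska-SS and 5.76, 5.66 and 6.23 in Yamato-SS, a difference of 4.0 (standard error 0.15, adjusted p = 9.2e-10). PSMB9, the partner of PSMB8 in the immunoproteasome, differed by 3.62 (standard error 0.42). TAPBP, which holds class I molecules at the transporter, differed by 2.0, the peptide-trimming enzyme ERAP1 by 2.22, and MICB, a ligand of natural killer cells, by 4.08 (standard error 0.70). B2M, the light chain of class I, differed by 0.50 (standard error 0.07), and did not pass with the mean of its probe sets (0.44, adjusted p = 0.0756). PSMB10, another immunoproteasome subunit, had a difference of 0.22 (standard error 0.19), which did not pass. Both members higher in Yamato-SS are chains of 1 class II molecule, HLA-DP. HLA-DPA1 gave 6.06, 6.47 and 6.06 in Aska-SS and 9.45, 9.54 and 9.73 in Yamato-SS. HLA-DPB1, the other chain, gave 5.59, 5.84 and 5.46 in Aska-SS and 8.64, 8.40 and 8.51 in Yamato-SS. HLA-DMB, which loads class II molecules, was higher in Aska-SS by 4.52 (standard error 0.23).

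The start regions of some of these genes share a short motif that interferon regulatory factors are known to bind, GAAA repeated after any 2 bases, searched on both strands in the RefSeq promoter windows (250 bases before to 50 after the gene start, GRCh38.p14). Of the 21 tested members 20 had a window. Taking the first window listed for a gene, 7 of these (35.0%) held the motif, against 255 of 9921 tested genes with a window (2.57%) and 996 of all 27305 genes of the table (3.65%). The 7 were B2M, ERAP1, HLA-F, PSMB10, TAP1, TAP2 and TAPBP. Taking every window listed, PSMB8 held it too in its other one, so that 8 of 20 members (40%) did, against 3.68% of tested genes and 4.38% of all. A match is a description of letters and not a bound site. Members with the motif had both large and small differences, such as TAP1 with 4.0 and PSMB10 with 0.22, and HLA-C, with 5.39, had no match in its window. The windows of 3 members with the motif are shown, 2 with a difference of 2 units or more and 1 with almost none. Capitals mark the motif, with overlapping matches joined, read 5′ to 3′ on the gene's strand.
TAP1 (chr6:32853655-32853954, minus strand): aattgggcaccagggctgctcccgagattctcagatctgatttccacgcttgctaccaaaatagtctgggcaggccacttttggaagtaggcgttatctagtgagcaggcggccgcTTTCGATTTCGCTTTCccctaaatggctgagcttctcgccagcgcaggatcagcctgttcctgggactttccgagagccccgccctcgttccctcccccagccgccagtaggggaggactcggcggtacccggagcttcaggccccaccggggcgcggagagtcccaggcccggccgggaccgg
TAPBP (chr6:33314029-33314328, minus strand): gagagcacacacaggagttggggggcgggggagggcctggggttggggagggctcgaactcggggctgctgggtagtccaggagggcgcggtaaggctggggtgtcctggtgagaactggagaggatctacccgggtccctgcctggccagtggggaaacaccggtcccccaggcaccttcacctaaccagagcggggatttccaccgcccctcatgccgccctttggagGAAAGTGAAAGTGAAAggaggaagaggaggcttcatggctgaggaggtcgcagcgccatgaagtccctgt
PSMB10 (chr16:67936801-67937100, minus strand): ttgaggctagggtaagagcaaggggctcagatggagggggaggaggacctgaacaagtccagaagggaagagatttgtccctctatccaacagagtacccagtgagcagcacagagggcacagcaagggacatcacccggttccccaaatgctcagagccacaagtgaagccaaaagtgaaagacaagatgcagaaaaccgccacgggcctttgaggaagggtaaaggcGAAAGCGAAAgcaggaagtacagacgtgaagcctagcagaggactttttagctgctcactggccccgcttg

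Interferon response genes outside antigen presentation were split. Of 27 tested, 14 were higher in Aska-SS and 6 in Yamato-SS, where 31.2% and 30% of all genes were, and the median was 0.66. The differences of 6 and 3 were held (33.3%), against 10.6% and 9.43% of all genes (20.1% together). IFI35, an interferon-induced protein, gave 10.19, 10.26 and 10.18 in Aska-SS and 4.38, 3.60 and 5.25 in Yamato-SS, and XAF1, a partner of XIAP, differed by 4.22 (standard error 0.29). PARP14 and DDX60 were higher in Aska-SS as well, by 4.11 and 3.09. IFIT1, which binds viral RNA, went the other way with 9.59, 9.59 and 9.52 in Aska-SS and 11.96, 12.21 and 12.77 in Yamato-SS, a difference of -2.75 (standard error 0.17, adjusted p = 6.65e-08). USP18, which removes ISG15 from proteins, differed by -2.52 (standard error 0.50). IFIT1 and IFI35 were thus held in opposite directions in the same arrays. IRF1, one of the factors known to bind such motifs, differed by 0.66 (standard error 0.14, adjusted p = 0.00148). Whether it had a part in the differences of other genes was not tested.

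Targets of the tumor suppressor p53 leaned to Aska-SS. Of 23 tested, 20 were higher in Aska-SS, 0 in Yamato-SS (20 and 0 also at an unadjusted p under 0.05) and 3 did not pass. Among all genes 31.2% and 30% passed. In this list 8 were held (34.8%, against 20.1% of all genes), with a median of 0.86. CDKN1A, which encodes the cyclin-dependent kinase inhibitor p21, gave 11.71, 11.19 and 11.09 in Aska-SS and 8.32, 7.25 and 7.30 in Yamato-SS, a difference of 3.70 (standard error 0.23, adjusted p = 6.96e-08). TP53I3, a quinone oxidoreductase, gave 11.14, 11.28 and 11.06 in Aska-SS and 8.58, 8.80 and 8.77 in Yamato-SS, a difference of 2.44 (standard error 0.11). GDF15, a stress cytokine, differed by 2.39 (standard error 0.34) and TP53INP1, an autophagy and stress protein, by 1.90 (standard error 0.31). The death receptor FAS and the Akt repressor PHLDA3 differed by 1.82 and 1.83. The other 12 that passed were higher in Aska-SS by less than 1 log2 unit at some dose, such as BAX with 0.90 and MDM2, the ligase that degrades p53, with 0.66. The nuclease AEN, SPATA18 and the stress protein SESN2 did not pass.

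Mitotic and replication genes that passed the test were all higher in Yamato-SS. All 36 genes of the list were tested, and 24 were higher in Yamato-SS, 0 in Aska-SS (26 and 0 at an unadjusted p under 0.05) and 12 did not pass, with a median of -0.70. Among all genes 30% passed as higher in Yamato-SS and 31.2% in Aska-SS. Of the 24, 6 were held, which is 16.7% of the list against 20.1% of all genes. CDC45, a part of the replicative helicase, gave 8.61, 7.0 and 4.76 in Aska-SS and 10.25, 10.24 and 9.07 in Yamato-SS, a difference of -3.06 (standard error 0.63, adjusted p = 0.00123) that was widest at 3 µM and did not pass without the dose in the model (adjusted p = 0.0597). MCM5, MCM7 and MCM4, subunits of the same helicase, differed by -2.06, -1.98 and -1.80. The mitotic activator CDC20 and the ribonucleotide reductase subunit RRM1 differed by -1.66 and -1.36. MKI67, the proliferation marker Ki-67, gave 10.90, 10.43 and 10.37 in Aska-SS and 11.03, 10.80 and 10.58 in Yamato-SS, a difference of -0.24 (standard error 0.30, adjusted p = 0.519) that did not pass. TOP2A, the topoisomerase of mitosis, had a difference of 0.20 (standard error 0.26), which did not pass either. Of the 36 genes, 33 were lower at 3 µM than at 0 µM in both lines, and without the dose in the model 7 passed, against 24 with it.

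Single regulators of the G1 phase differed strongly, while the median size of the difference in their list was 0.66, against 0.55 over all genes. CDK6, the kinase that phosphorylates RB1 beside CDK4, gave 9.50, 9.54 and 9.41 in Aska-SS and 14.35, 14.34 and 14.12 in Yamato-SS, a difference of -4.79 (standard error 0.13, adjusted p = 9.81e-11). CDKN2A, which encodes the CDK4 and CDK6 inhibitor p16, gave 8.66, 8.01 and 8.33 in Aska-SS and 11.40, 11.55 and 11.47 in Yamato-SS, also higher in Yamato-SS. Its neighbors CDKN2B and MTAP were higher in Yamato-SS too, by 2.05 and 2.03. Cyclin D genes were split between the lines. CCND2 gave 14.53, 14.25 and 13.91 in Aska-SS and 11.74, 11.74 and 11.42 in Yamato-SS, a difference of 2.59 (standard error 0.18). CCND1 gave 11.05, 10.76 and 10.33 in Aska-SS and 12.59, 12.94 and 12.56 in Yamato-SS, a difference of -1.98 (standard error 0.22). MYCN was higher in Yamato-SS by 1.86, and the p27 gene CDKN1B was higher in Aska-SS by 1.24 and was higher at each higher dose in both lines. Of the 27 tested genes of this list, 7 were higher in Aska-SS and 14 in Yamato-SS, where 31.2% and 30% of all genes were. In the list 37.0% were held, against 20.1% of all genes.

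**Figure D4:**
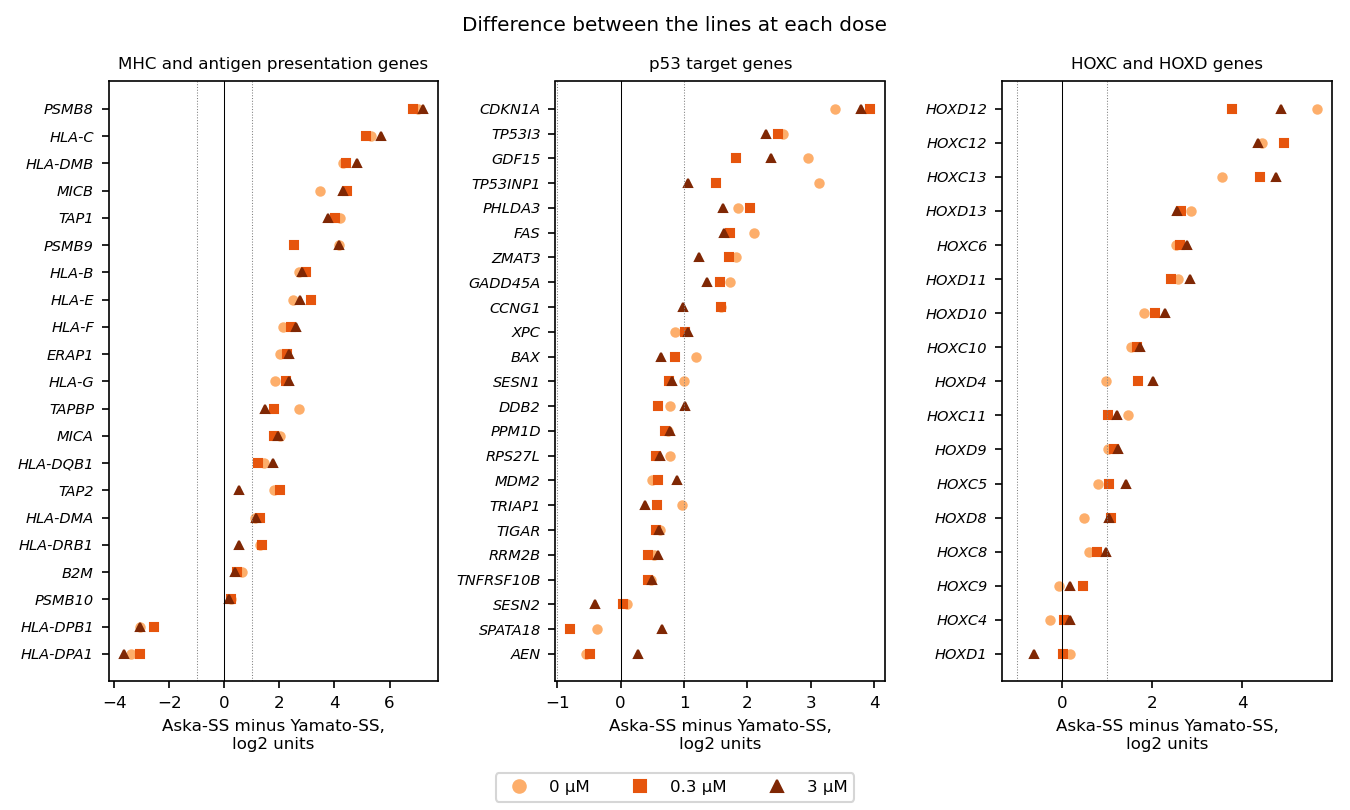
Aska-SS minus Yamato-SS difference in log2 units at 0 µM (circles), 0.3 µM (squares) and 3 µM (triangles) for each tested gene of 3 lists, with dotted lines at 1 and -1. Most antigen presentation, p53 target and HOXC and HOXD genes lie to the right of 0 at each dose, with HLA-DPA1 and HLA-DPB1 to the left.

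HOX genes, which record position along the body axis, were mostly higher in Aska-SS. Of 17 tested HOXC and HOXD genes, 14 were higher in Aska-SS and 0 in Yamato-SS (14 and 0 also at an unadjusted p under 0.05). Among all genes 31.2% and 30% passed. In these clusters 10 were held (58.8%, against 20.1% of all genes) and the median was 1.56. The 3 largest differences were in HOXD12, HOXC12 and HOXC13, at the 5′ ends of the clusters, whose genes are known to act toward the tail and the tips of the limbs. HOXC4, HOXC9 and HOXD1 did not pass the test. HOXC12 gave 8.90, 9.24 and 9.05 in Aska-SS and 4.46, 4.31 and 4.69 in Yamato-SS, a difference of 4.58 (standard error 0.28). HOXD12 gave 9.26, 9.25 and 8.46 in Aska-SS and 3.60, 5.48 and 3.60 in Yamato-SS, a difference of 4.77 (standard error 0.45). HOXC13 and HOXD13, the last genes of their clusters, differed by 4.24 and 2.68. HOXC6, toward the other end of its cluster, differed by 2.64 (standard error 0.08). In the other clusters HOXB8 and HOXB6 were higher in Aska-SS by 3.67 and 3.04, and HOXA2 was higher in Yamato-SS with 3.60, 3.75 and 4.65 in Aska-SS and 10.27, 10.31 and 10.58 in Yamato-SS. Their partners MEIS1 and MEIS2 were held in opposite directions, with 2.01 and -7.92.

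Other patterning factors split the lines sharply. Of 50 tested, 14 were held as higher in Aska-SS and 21 in Yamato-SS, against 10.6% and 9.43% of all genes. EN1, a homeobox factor of the midbrain and limb, gave 11.26, 11.67 and 11.56 in Aska-SS and 4.89, 4.82 and 5.17 in Yamato-SS, a difference of 6.54 (standard error 0.15, adjusted p = 2.68e-11). MSX2, a homeobox factor of bone and limb, gave 12.15, 12.19 and 11.89 in Aska-SS and 5.98, 5.70 and 6.26 in Yamato-SS, and its relative MSX1 was higher in Yamato-SS by 3.39. ZIC2 was higher in Aska-SS by 4.64 and ZIC1 higher in Yamato-SS by 5.62. SOX9, the factor of cartilage, gave 12.002, 11.74 and 11.75 in Aska-SS and 6.93, 7.54 and 7.30 in Yamato-SS, and SOX2, a factor of stem and neural progenitor cells, gave 5.02, 5.16 and 3.60 in Aska-SS and 11.34, 11.69 and 11.72 in Yamato-SS. Related factors of the MSX, ZIC and SOX families were thus held in opposite directions. TCF21 and TBX5, factors of visceral mesoderm and of the forelimb and heart, were at the floor in Aska-SS and gave 9.03, 8.93 and 9.27 and 8.72, 8.84 and 8.35 in Yamato-SS. PAX3 and PAX6 were higher in Yamato-SS by 4.18 and 4.61, IRX3 by 4.14 and FOXF1 by 2.58.

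Markers of SS were present in both lines and varied in strength. Of 27 tested, 17 were higher in Aska-SS and 9 in Yamato-SS, where 31.2% and 30% of all genes were. The differences of 9 and 8 were held, against 10.6% and 9.43% of all genes. ZIC2, SOX9, SIX4 and BMP7 were the furthest to the Aska-SS side, with 4.64, 4.58, 4.38 and 4.16. NRP2, a coreceptor of semaphorins and VEGF, gave 5.21, 5.23 and 5.83 in Aska-SS and 10.26, 10.19 and 9.87 in Yamato-SS, and TBX3, NTRK3 and GREB1 were higher in Yamato-SS by 3.51, 2.88 and 2.35. BCL2, the inhibitor of apoptosis that most SS express, gave 8.83, 8.83 and 8.67 in Aska-SS and 11.04, 11.06 and 10.36 in Yamato-SS, a difference of -2.04 (standard error 0.22, adjusted p = 5.93e-06). FZD10, a Wnt receptor that is a target of antibodies in SS, was higher in Aska-SS by 3.02 (standard error 0.29).

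Subunits of the BAF and Polycomb complexes, the partners and opponents of the fusion protein, differed about as often as other genes, with 15.7% of 51 tested held against 20.1% of all genes. BCOR, a subunit of a variant Polycomb complex, gave 5.72, 6.50 and 6.0 in Aska-SS and 10.62, 10.91 and 11.41 in Yamato-SS, a difference of -4.90 (standard error 0.18, adjusted p = 7.78e-10). SMARCB1, the BAF subunit that the fusion protein is known to displace, gave 9.17, 9.08 and 8.65 in Aska-SS and 10.43, 10.35 and 10.24 in Yamato-SS, a difference of -1.37 (standard error 0.12). The Polycomb-like proteins PHF19 and MTF2 were higher in Yamato-SS by 3.08 and 1.80, as was the BAF subunit SMARCD3 by 2.32. PHF10 and the ATPase SMARCA2 were the members held as higher in Aska-SS, by 1.24 and 1.65.

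Mesenchymal genes differed in both directions, with a median of 0.01. Of 21 tested, 8 were held as higher in Aska-SS and 6 in Yamato-SS, against 10.6% and 9.43% of all genes. The related repressors of epithelial genes ZEB1 and ZEB2 went opposite ways. ZEB1 gave 11.19, 11.40 and 11.48 in Aska-SS and 5.81, 5.56 and 6.59 in Yamato-SS, a difference of 5.37 (standard error 0.17). ZEB2 gave 5.73, 6.98 and 6.40 in Aska-SS and 10.60, 10.98 and 11.16 in Yamato-SS, a difference of -4.55 (standard error 0.37). TAGLN, an actin-binding protein of smooth muscle, gave 13.17, 12.81 and 11.94 in Aska-SS and 6.49, 7.16 and 7.11 in Yamato-SS, and ACTA2, smooth muscle actin, gave 12.41, 11.74 and 10.04 in Aska-SS and 7.91, 8.04 and 8.05 in Yamato-SS. Both were lower at each higher dose in Aska-SS. The small proteoglycans of collagen fibrils LUM and DCN were higher in Aska-SS by 4.44 and 3.69, and the fibroblast marker THY1, fibronectin (FN1), PRRX1 and N-cadherin (CDH2) were higher in Yamato-SS by 3.81, 2.95, 2.67 and 2.14. Of 32 epithelial genes 12 were tested, and 3 were higher in Aska-SS, 2 in Yamato-SS and 7 did not pass, with a median of -0.08. Among all genes 31.2% and 30% passed. The differences of 3 and 2 were held (41.7%, against 20.1% of all genes). KRT18 and the tight junction protein OCLN were among those higher in Aska-SS, by 3.13 and 3.40. CD24 and GRHL1 were higher in Yamato-SS by 2.16 and 1.80.

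The matrix followed the same split. Of 28 tested collagen genes, 7 were held as higher in Aska-SS and 10 in Yamato-SS, against 10.6% and 9.43% of all genes. Chains of one protein could differ in direction. COL6A3 was higher in Yamato-SS by 7.0 while COL6A2, a chain of the same collagen VI, gave 8.97, 9.73 and 9.84 in Aska-SS and 6.81, 7.64 and 8.15 in Yamato-SS and was higher in Aska-SS by 1.98. The fibrillar collagens COL3A1, COL1A2 and COL11A1 were higher in Yamato-SS by 2.37, 1.51 and 3.78. COL7A1, the anchoring fibril collagen of skin, and COL13A1, COL14A1 and COL9A3 were higher in Aska-SS by 4.67, 4.49, 3.84 and 3.82. Outside collagens, MMP1, an enzyme that cuts fibrillar collagen, gave 12.27, 12.07 and 12.01 in Aska-SS and 5.77, 4.46 and 6.79 in Yamato-SS and was higher in Aska-SS, as MMP10 was. The heparan sulfate proteoglycan GPC6 gave 4.23, 3.60 and 3.60 in Aska-SS and 11.61, 11.94 and 12.36 in Yamato-SS, and FBN1 and FBN2, the fibrillins, were held in opposite directions, with -2.60 and 2.52.

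Integrins and laminins, and cadherins and protocadherins, leaned to Aska-SS. Of 22 tested integrins and laminins, 14 were higher in Aska-SS and 4 in Yamato-SS, where 31.2% and 30% of all genes were. The differences of 8 and 2 were held, against 10.6% and 9.43% of all genes. ITGA1, a collagen receptor, gave 11.03, 11.25 and 11.25 in Aska-SS and 6.55, 5.65 and 6.35 in Yamato-SS. ITGA2, another collagen receptor, gave 10.28, 10.52 and 10.78 in Aska-SS and 5.34, 3.60 and 4.58 in Yamato-SS. ITGA9 was higher in Aska-SS by 6.13 (standard error 0.29) and the laminin receptor ITGA6 by 4.23 (standard error 0.26). ITGA4, which binds the VCAM1 named above, gave 6.36, 6.40 and 6.05 in Aska-SS and 10.17, 10.30 and 10.27 in Yamato-SS and was higher in Yamato-SS, as VCAM1 was. Of 17 tested cadherins and protocadherins, 7 were held as higher in Aska-SS and 2 in Yamato-SS, led by the large cadherin FAT4 with 5.13 (standard error 0.17).

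Receptor tyrosine kinases gave each line its own set. Of 33 tested, 5 were held as higher in Aska-SS and 10 in Yamato-SS, against 10.6% and 9.43% of all genes. Aska-SS had EPHA7 and ALK, described above, with INSR, EPHB6 and FGFR2 at 3.16, 2.37 and 1.55. In Yamato-SS, EPHA4 gave 11.80, 12.12 and 12.19 against 6.58, 6.46 and 6.33 in Aska-SS. MET, the receptor of hepatocyte growth factor, gave 10.40, 10.47 and 10.78 in Aska-SS and 14.21, 14.25 and 14.46 in Yamato-SS, a difference of -3.76 (standard error 0.14, adjusted p = 1.1e-09), and its ligand HGF gave 6.48, 6.16 and 6.47 in Aska-SS and 10.64, 10.77 and 11.16 in Yamato-SS. Receptor and ligand were thus both higher in Yamato-SS. KIT, the stem cell factor receptor, gave 7.19, 7.67 and 8.07 in Aska-SS and 11.83, 11.26 and 11.24 in Yamato-SS, and its ligand KITLG was higher in Yamato-SS by 1.49. FLT1, ROR2 and PDGFRA were higher in Yamato-SS by 3.33, 3.63 and 1.67, and PDGFA, a ligand of PDGFRA, was higher in Aska-SS by 5.35 (standard error 0.25). Among other ligands BDNF, a neurotrophin, gave 4.35, 3.60 and 4.51 in Aska-SS and 10.43, 10.54 and 10.42 in Yamato-SS, while EFNB2 and FGF13 were higher in Aska-SS by 5.06 and 5.64.

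Wnt signaling genes differed in their secreted ligands and inhibitors and in their receptors. Of 33 tested, 13 were held as higher in Aska-SS and 7 in Yamato-SS, against 10.6% and 9.43% of all genes. Beside DKK1, the inhibitor WIF1 gave 14.27, 14.33 and 14.54 in Aska-SS and 8.90, 9.10 and 8.89 in Yamato-SS, a difference of 5.41 (standard error 0.09, adjusted p = 2.22e-12), and DKK2 and DKK3 were higher in Aska-SS by 2.74 and 3.09. The ligands WNT11 and WNT5A were higher in Aska-SS by 6.87 and 3.05, and RSPO3, which strengthens Wnt signals, by 4.42. AXIN2, a target and brake of the pathway, gave 11.41, 11.75 and 11.59 in Aska-SS and 8.31, 8.76 and 8.59 in Yamato-SS, a difference of 3.03 (standard error 0.11). The receptor FZD1 gave 9.14, 9.10 and 9.54 in Aska-SS and 14.33, 14.52 and 14.47 in Yamato-SS. The coreceptor LRP5 gave 5.05, 5.13 and 3.60 in Aska-SS and 8.92, 9.12 and 9.24 in Yamato-SS, so both were higher in Yamato-SS. FZD6 and FZD10 were higher in Aska-SS by 4.59 and 3.02, and FZD4 in Yamato-SS by 2.65.

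In the BMP and TGF beta pathways, ligands of the same family were divided. BMP2 gave 11.42, 11.58 and 11.72 in Aska-SS and 6.77, 6.75 and 6.25 in Yamato-SS. BMP4 gave 7.57, 8.31 and 7.97 in Aska-SS and 11.41, 11.14 and 10.25 in Yamato-SS and was held in the opposite direction. BMPR1B, a type I receptor of BMPs, was higher in Yamato-SS by 5.86 and the antagonist GREM1 by 3.31, and LTBP2, a binding protein of the matrix, was higher in Aska-SS by 4.66. Of 29 tested Notch and Hedgehog genes, 2 were held as higher in Aska-SS and 9 in Yamato-SS, against 10.6% and 9.43% of all genes. The list's median was -0.47. The Notch targets HEY1, HES1 and HES4 were higher in Yamato-SS by 2.61, 2.18 and 2.04, and the Notch ligand JAG1 by 1.67. HHIP, the Hedgehog inhibitor, gave 12.09, 12.50 and 12.59 in Aska-SS and 7.39, 7.32 and 7.14 in Yamato-SS, a difference of 5.11 (standard error 0.21, adjusted p = 1.89e-09) in favor of Aska-SS, and SMO, the Hedgehog signal transducer, was higher in Yamato-SS by 1.85.

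Components of the pathway that ZSTK474 blocks were split evenly, with a median of 0.09. Of 38 tested, 7 were held as higher in Aska-SS and 6 in Yamato-SS, against 10.6% and 9.43% of all genes. IRS2, an insulin receptor substrate that passes the signal from receptors to PI3K, gave 13.97, 14.08 and 14.21 in Aska-SS and 7.53, 7.51 and 8.32 in Yamato-SS, a difference of 6.30 (standard error 0.36, adjusted p = 2.95e-08). IRS4 and IRS1 were higher in Aska-SS by 3.49 and 2.56, with 13.09, 13.34 and 13.29 in Aska-SS and 9.70, 9.75 and 9.82 in Yamato-SS for IRS4. GAB2 gave 5.90, 4.86 and 6.24 in Aska-SS and 9.86, 9.74 and 10.26 in Yamato-SS and GAB1 was higher in Yamato-SS as well, by 1.51. FOXO1, the transcription factor that Akt restrains, gave 8.36, 9.23 and 9.74 in Aska-SS and 4.90, 6.18 and 7.15 in Yamato-SS, and DEPTOR, an inhibitor of mTOR, gave 10.04, 10.37 and 10.16 in Aska-SS and 5.53, 7.42 and 8.59 in Yamato-SS. FOXO1 was higher at each higher dose in both lines, whereas DEPTOR was so in Yamato-SS and spanned 10.04 to 10.37 in Aska-SS. INPP4B, a phosphatase of phosphoinositides, was higher in Aska-SS by 2.26, and MTOR and RPS6KB2 higher in Yamato-SS by 1.49 and 1.30.

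Of the BCL-2 family and death receptor genes, 6 of 29 tested were held (20.7%), about the share of all genes (20.1%). CASP8, the initiator caspase of death receptors, gave 11.21, 11.34 and 11.31 in Aska-SS and 6.97, 6.86 and 7.0 in Yamato-SS, a difference of 4.35 (standard error 0.20, adjusted p = 4.16e-09), and its regulator CFLAR differed by 1.47 (standard error 0.15). FAS was higher in Aska-SS, as given above, and the decoy receptor TNFRSF10D higher in Yamato-SS by 1.23. HRK, a BH3-only protein, was higher in Aska-SS by 1.92 (standard error 0.50). BCL2L11, which encodes BIM, gave 9.14, 9.53 and 9.78 in Aska-SS and 8.04, 8.88 and 9.76 in Yamato-SS, and its differences of 1.10, 0.65 and 0.02 were smaller at each higher dose. The fitted difference was 0.59 (standard error 0.17, adjusted p = 0.0109), and it did not pass when the 0 µM array of Aska-SS (0.44) or of Yamato-SS (0.40), or all arrays of 0 µM (0.33) or 0.3 µM (0.56), were left out. It did not pass either with the mean of its probe sets (0.26, adjusted p = 0.194) or without the dose in the model (adjusted p = 0.281). MCL1 differed by 0.47 (standard error 0.08) and BCL2L1, which encodes BCL-XL, by 0.09 (standard error 0.17) with an adjusted p of 0.673.

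Several smaller groups held single large contrasts. Among cancer testis antigens 5 of 38 were tested. MAGEA4 gave 13.12, 12.95 and 12.81 in Aska-SS and 4.34, 3.60 and 4.20 in Yamato-SS, and it is the target of T cell receptor therapy in SS. CTAG2 gave 14.01, 13.76 and 13.49 in Aska-SS and 3.60, 5.22 and 3.60 in Yamato-SS, while DDX43 gave 3.68, 3.76 and 3.60 in Aska-SS and 9.97, 10.29 and 10.95 in Yamato-SS. Imprinted genes were divided too, with PEG3 higher in Aska-SS by 5.24 and PEG10, SGCE and MEST higher in Yamato-SS by 6.83, 5.94 and 4.91. Of 28 tested cytokine and chemokine genes, 9 were held as higher in Aska-SS and 5 in Yamato-SS, against 10.6% and 9.43% of all genes. Chemokines of neutrophils were divided. CXCL8 gave 11.72, 11.43 and 11.69 in Aska-SS and 5.89, 4.69 and 3.60 in Yamato-SS, and CXCL6 and CXCL1 were higher in Aska-SS too, by 6.72 and 4.62. CXCL5 and CXCL2 were higher in Yamato-SS by 4.72 and 1.82, and CXCL3 had a difference of -1.24 (standard error 0.47, adjusted p = 0.0372) whose call was lost in 10 alternatives. CXCR4, the receptor of CXCL12, was higher in Yamato-SS by 3.18. Retinoic acid enzymes formed another contrast. CYP26A1, which breaks down retinoic acid, gave 3.60, 3.60 and 3.65 in Aska-SS and 9.92, 10.08 and 9.76 in Yamato-SS, higher in Yamato-SS with ALDH1A2, which makes it, and CYP26B1 and ALDH1A1 were higher in Aska-SS by 2.16 and 2.55. Neuronal genes were split, with 59.4% of 32 tested held, against 20.1% of all genes. In Aska-SS 9 were held as higher, led by NPY1R and SCN9A. In Yamato-SS 10 were, led by the guidance cue SLIT2 with -4.69 and its receptor ROBO2 with -3.72.

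Few markers of other cell types passed the filter on signal. Of 16 leukocyte markers 3 passed and 0 were held by the rule above, with 1 of them higher in Yamato-SS in limma (1 also at an unadjusted p under 0.05), and of 12 endothelial markers 4 passed and 1 was held, the transcription factor ERG with 5.64, 4.94 and 4.96 in Aska-SS and 8.48, 8.18 and 8.09 in Yamato-SS. Of the 16 muscle markers 4 passed, and ACTA2, given above, and the troponin TNNT1 were higher in Aska-SS, the second by 1.74. RNA quality was read from the beta actin and GAPDH controls. For beta actin the log2 signal at the 3′ end exceeded that at the 5′ end by 0.04 to 0.24 in Aska-SS and by 0.05 to 0.26 in Yamato-SS, most at 3 µM in each line. For the GAPDH controls the same log2 ratio was between -0.13 and 0 in Aska-SS and between -0.09 and 0.06 in Yamato-SS, lowest at 3 µM in the first and highest there in the second. The part of RNA quality in the results was not tested.

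Some of the genes higher in one line lay side by side. The tested autosomal genes were put in chromosomal order and the median difference was taken over every 31 neighbors. Over 11051 such windows the 5th percentile was -0.85 and the 95th 0.55. The lowest window ran from ADAM22 to SDHAF3 with a median of -2.60, and 25 of its 31 genes were held as higher in Yamato-SS. It holds CDK6, FZD1, SGCE, PEG10, DLX6 and DLX5 of the groups above, with GNG11 at -4.80 and SLC25A13 at -4.92. In this window the medians of SYO-1 and Fuji were 1.97 and 2.80 below Yamato-SS and 0.53 above and 0.23 below Aska-SS.

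The second lowest window lay on the same chromosome, from PRKAR2B to ANKRD7, with a median of -1.69 and 18 genes held as higher in Yamato-SS. It holds MET and TES, a focal adhesion protein, with -5.21. The third ran from TMEM134 to DHCR7 on another chromosome, with a median of -1.47 and 18 genes held, among them CCND1, LRP5, FGF19 (-2.73) and GAL (-4.35). Within it MRGPRF and ANO1 went the other way, with 5.31 and 3.92. In all 3 windows SYO-1 and Fuji lay nearer to Aska-SS than to Yamato-SS by their medians.

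The highest windows were less steep. The window from SEC24D to PABPC4L had a median of 1.34 with 18 genes held as higher in Aska-SS, among them PDE5A, FAT4, NDNF (5.56) and SPRY1 (3.57), an inhibitor of receptor tyrosine kinase signals. The window from SLC7A11 to PRMT9, further along the same chromosome, had a median of 1.19 with HHIP, INPP4B, IL15 and SMAD1. GAB1 lay in it with the opposite sign. The window from STING1 to PCDHGA8 on another chromosome, also with a median of 1.19, held clustered protocadherins, such as PCDHB6 (6.33), PCDHB16 (5.55) and PCDHGA4 (6.0). Protocadherin genes are near-identical copies whose probe sets can share signal, so single members are uncertain.

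**Figure D5:**
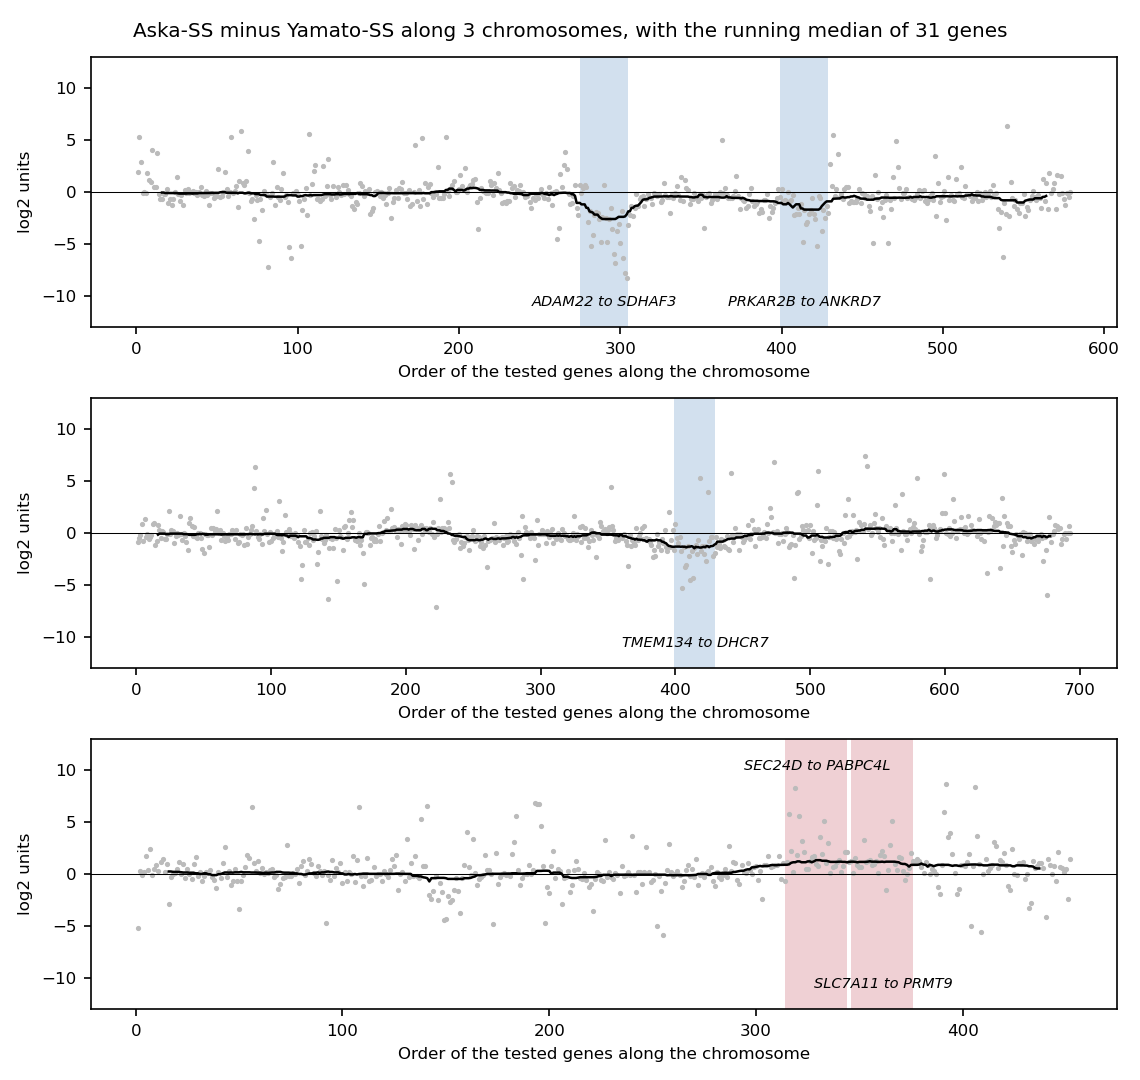
Aska-SS minus Yamato-SS difference, in log2 units, of each tested gene (grey points) in its order along 3 chromosomes, with the running median of 31 genes (black line). Shaded windows are the lowest (blue) and highest (red) ones on these chromosomes, named by their first and last genes, and the running median falls to -2.60 between ADAM22 and SDHAF3.

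Of the lines with SS18-SSX2, Fuji was more often nearer to Aska-SS than to Yamato-SS, at 63.7% of the genes held as higher in Aska-SS and 60.1% of those held as higher in Yamato-SS. The shares of SYO-1 were 48.1% and 50.5%. Among the 1292 genes held as higher in Aska-SS, both SYO-1 and Fuji were nearer to Aska-SS at 39.0% and both nearer to Yamato-SS at 27.2%. Among the 1144 held as higher in Yamato-SS, the shares were 38.9% and 28.3%. QPCT is an example of the first kind, with means of 13.07 in SYO-1 and 14.24 in Fuji, so that Yamato-SS stood apart. ALK had means of 3.86 in SYO-1 and 7.51 in Fuji, so that Aska-SS stood apart. COL6A3 and MEIS2 divided the lines another way, high in Yamato-SS and SYO-1 (means of 14.65 and 13.24 in SYO-1) and low in Aska-SS and Fuji.

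A few held differences changed with dose, named here after their values were seen. Over the 2194 held genes with no array at the floor, the difference at the 3 doses spanned a median of 0.51 log2 units, with a 95th percentile of 1.72. TXNIP, an inhibitor of thioredoxin and of glucose uptake, gave 10.91, 12.13 and 12.54 in Aska-SS and 5.87, 7.86 and 11.27 in Yamato-SS, and its gap closed from 5.04 at 0 µM to 1.27 at 3 µM. The gap of DEPTOR closed from 4.51 to 1.57 and that of ABTB1 from 4.33 to 1.27. In each of these 3 genes Yamato-SS, the lower line, was higher at each higher dose. NUPR1, a stress-induced chromatin protein, gave 7.74, 8.39 and 9.0 in Aska-SS and 5.63, 5.61 and 4.05 in Yamato-SS, so that its gap opened from 2.11 to 4.95. TSPAN11 and ASAP3 opened in favor of Yamato-SS, from -2.45 to -5.51 and from -2.77 to -5.67. With 1 array per line and dose, these changes have no replicate and were not tested.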

How the data were processed

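RNA of 4 synovial sarcoma lines at 3 doses of ZSTK474 was hybridized to 12 arrays, 1 per line and dose. The deposited values are MAS5 signal intensities, made by the authors and scaled to a common trimmed mean per array. The methods name quantile normalization, which the deposited columns had not received, so the intensities were quantile normalized over the 12 arrays, floored at the 20th percentile and taken to log2. Dim probe sets, 62 control probe sets, probe sets with several gene symbols and withheld items were left out. Differences were fitted in limma 3.58.1 (R 4.3.3) on all 12 arrays, with line and dose as terms, a variance trend and Benjamini-Hochberg adjustment, after a test of the script on simulated data. Arrays sharing a dose were paired by the labels' doses, and their deviations correlated with 0.49, 0.07 and 0.47 at 0, 0.3 and 3 µM. The number of arrays limits the precision, with 1 array per line and dose.

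The members and gene lists were chosen with earlier results of these data known. Genes were named by a rule: the 10 with the largest smallest-of-3-doses difference in each direction, the 10 in each direction at the floor in the other line, up to 4 held members of each list in each direction, and SS18 with BCL-2 family genes, of which BBC3 is not reported. The rule gave 212 genes, and 75 others, list members, neighbors and dose-dependent genes, were named after their values were seen. Alternatives changed the normalization, floor, filter, probe set summary, arrays in the fit, dose term, variance model and fold, and left out each array or dose. Sequences are from RefSeq (GRCh38.p14). A comparison of promoter CpG content was set aside for its coverage and is not reported. Of held Aska-SS genes 79.0% had a promoter in the table, of held Yamato-SS genes 79.2%, and of all tested genes 81.8%.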

Additional observations from a re-analysis of the deposited data

Results flagged for a closer look

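The difference between the lines changed from 0 to 3 µM by 2.85 log2 units in NUPR1 and by -3.06 in TSPAN11, because the lines moved opposite ways at 3 µM. At 0.3 µM, Yamato-SS had changed by -0.02 in NUPR1 and Aska-SS by -0.11 in TSPAN11. From 0 to 3 µM NUPR1, a stress-induced chromatin protein, changed by 1.26 in Aska-SS and by -1.59 in Yamato-SS. TSPAN11, a tetraspanin membrane protein, changed by -1.05 and by 2.01. Each value rests on 1 array per line and dose, both genes were named after their values were seen, and the difference was not tested.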

How the results depend on the processing

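The 4 counts of genes kept within 1.5 times of the values given in the report under every alternative run but 2. With dim probe sets removed at the 65th percentile, 855 genes were held as higher in Aska-SS, fewer genes having been tested. With a log2 difference of at least 2 at each dose, 584 were held in Aska-SS and 406 in Yamato-SS. Leaving out single arrays or doses gave 2736 to 3586 genes called higher in Aska-SS, 2615 to 3413 in Yamato-SS, 1365 to 1498 held in Aska-SS and 1189 to 1376 held in Yamato-SS. In these runs a difference had to hold at only 2 doses in place of 3. The rule was thus looser, and these held counts do not check the rule of 3 doses. Without quantile normalization the held genes were 1436 and 1082, so Aska-SS took 57% in place of 53%, and 2326 of the 2436 were shared. Without the dose as a replicate block 2844 and 2645 were called and 1273 and 1123 held, with 2396 shared, and the mitotic and replication genes called higher in Yamato-SS went from 24 to 7. Among p53 targets 1 gene was called higher in Yamato-SS with the mean of probe sets, with array weights, and without Yamato-SS or all lines at 3 µM. Of 6212 values of single named genes over the alternatives, 6180 kept direction and side of the threshold. The exceptions were in SS18, BCL2L11, BCL2L1, B2M, CDC45, CXCL3, CDH6, CDH10 and GDF10. BCL2L1, which did not pass, turned to -0.11 with the mean of its probe sets, to -0.06 without Yamato-SS at 0.3 µM and to -0.078 without that dose in all lines, and leaving out arrays or doses moved it between -0.078 and 0.28. The cause was not tested. Each line had 1 array a dose, so a difference between the lines cannot be told apart from one between these cultures.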
